A study of Mus musculus with 48 samples.

Results

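Nuclear factor I (NFI) proteins are a family of 4 transcription factors in the mouse, encoded by Nfia, Nfib, Nfic and Nfix. The family was described here by its 4 gene symbols, which are 4 of the 34590 genes counted in every one of 48 RNA sequencing libraries, and each of the 4 passed the filter on low counts in every comparison. The libraries come from a mouse model of Myc-driven Group 3 medulloblastoma, an aggressive childhood tumor of the cerebellum, in which the histone methyltransferase Ezh2 or the transcriptional repressor Gfi1 was altered. The values are counts on a gene per 1000000 counts on all genes of the library (CPM), and group values are means ± SD over libraries.

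All cells of 44 libraries were p53-/-;p18-/- and carried extra Myc, controls included. The labels name 3 tumor lines, 19251, 19554 and 19568. Line 19251 gave 6 control and 8 Gfi1 overexpression (Gfi1 OE) libraries. In set 1, each line gave 3 libraries with Cas9 alone, which is the control, and 3 labelled Ezh2 knockout (Ezh2 KO). In set 2, line 19568 gave 3 libraries each of Cas9, Ezh2 KO, Ezh2 overexpression (Ezh2 OE) and Ezh2 KO with Ezh2 put back (rescue). The other 4 libraries, WT GNP Myc Gfi1, are from wild-type granule neuron precursors that overexpress Myc and Gfi1. Per the labels, sphere cultures received their vectors by retrovirus, were sorted for red and green fluorescence, and were then injected into the cerebral cortex of CD-1 nu/nu mice, which lack T cells. RNA came from cultured spheres and from pieces of tumor, so tumor libraries can hold host brain cells. The titles say tumor for set 1, set 2 and WT GNP Myc Gfi1. For 19251 control and Gfi1 OE they say TP, which the titles do not explain. Ages are not given in the sources used here, and the labels do not say that replicates are separate animals, so p-values measure the spread between these samples only.

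As background, NFI proteins bind DNA as dimers and can either activate or repress a gene. Nfia is known for the switch of neural progenitors from making neurons to making glia. Nfib is required for development of the forebrain, pons and lung, and Nfix for brain and muscle development. Nfic is best known for its role in tooth root formation. In the postnatal cerebellum, Nfia, Nfib and Nfix act in granule neuron precursors as these cells stop dividing and mature. Gfi1 is a zinc finger repressor that recognises sites with AATC at their core, and Ezh2 places the repressive methyl mark on lysine 27 of histone H3.

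The genes lie on 3 chromosomes in mouse build GRCm38, whereas the counts were made on the older build mm9. Nfia and Nfib share chromosome 4, with Nfib at chr4:82290173-82705750 on the minus strand and Nfia at chr4:97772734-98118874 on the plus strand. Nfic lies at chr10:81396186-81455635 and Nfix at chr8:84699876-84800344, both on the minus strand. Because Gfi1 recognises AATC, promoter windows of 300 bases (250 before and 50 after the start) were read from the RefSeq table for build GRCm38.p6, which matched 3 of the 4 genes. The sequences, 5′ to 3′ with AATC on either strand in capitals, are the window of Nfia, whose count fell with Gfi1 OE, and those of Nfic and Nfix, which were not called lower. Nfib, which fell most with Gfi1 OE, had no window, so the windows do not compare genes called lower with the others. The windows are chr4:97581693-97581992 on the plus strand for Nfia, chr10:81427124-81427423 on the minus strand for Nfic and chr8:84780033-84780332 on the minus strand for Nfix.
Nfia: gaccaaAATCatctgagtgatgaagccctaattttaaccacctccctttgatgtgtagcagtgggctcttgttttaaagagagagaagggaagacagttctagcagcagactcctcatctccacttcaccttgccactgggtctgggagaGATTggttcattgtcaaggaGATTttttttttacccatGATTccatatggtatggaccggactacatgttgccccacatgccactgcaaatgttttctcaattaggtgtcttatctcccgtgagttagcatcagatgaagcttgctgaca
Nfic: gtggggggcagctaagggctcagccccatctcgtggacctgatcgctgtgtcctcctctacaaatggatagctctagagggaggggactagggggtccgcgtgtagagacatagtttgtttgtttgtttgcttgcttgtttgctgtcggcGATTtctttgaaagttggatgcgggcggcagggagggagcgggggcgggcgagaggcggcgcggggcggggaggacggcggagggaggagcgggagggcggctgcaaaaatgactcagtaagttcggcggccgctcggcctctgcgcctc
Nfix: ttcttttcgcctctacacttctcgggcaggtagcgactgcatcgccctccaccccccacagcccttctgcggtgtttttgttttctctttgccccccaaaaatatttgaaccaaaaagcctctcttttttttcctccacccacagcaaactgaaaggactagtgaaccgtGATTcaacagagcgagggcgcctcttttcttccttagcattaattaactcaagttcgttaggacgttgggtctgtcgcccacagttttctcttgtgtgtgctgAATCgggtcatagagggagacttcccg
The Nfia window held 4 matches to AATC, the Nfic window 1 and this Nfix window 2, while the other 3 Nfix windows of the table held 1, 3 and 3. Of all 32851 promoter windows in the table, 73.1% held at least 1 match and 10.1% held 4 or more. A longer Gfi1 motif, AAATCA followed by any 2 bases and GC (0.785% of windows), the single-arm NFI site TTGGCA (14.1%) and the NFI palindrome, TTGGC and GCCAA set 5 bases apart (0.0365%), searched on both strands, had no match in the windows of these 3 genes. AATC lies within the longer Gfi1 motif. The GC content was 44.7% in the Nfia window against 63.0% in the Nfic window, with 2 and 24 CpG pairs. The Nfix table lists 4 starts, of which the first is printed, and the Nfia start lies upstream of the gene span given above. A match in these windows is a description of letters and not of binding.

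Libraries held 2687637 to 94733131 counts on genes (median 29416561), and the lowest count of any NFI gene was 39 reads. The shallowest, Gfi1 OE replicate 5, had 71.6% of its reads not aligned. Cas9 replicate 1 of 19251 stood apart, with 9.91 CPM of Myc against 314.5 and 737.5 in the other 2 of its group, a proliferation marker sum of 30.7, an astrocyte marker sum of 3632 and a cortical neuron marker sum of 3638 CPM. In set 2, a library labelled Cas9 and a library labelled rescue were left out of the fits because the number in the title and that in the file name do not match. The libraries labelled WT GNP Myc Gfi1 held 0.471 ± 0.254 CPM of Gfi1, against 225 ± 157 in Gfi1 OE, which goes against their label. Values with and without Gfi1 OE replicate 5, Cas9 replicate 1 of 19251 and the left-out libraries are given where they move a result.

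Gfi1 OE libraries held far less Nfib and less Nfia than control libraries of the same line, while Nfix and Nfic were not called as changed. Nfib fell 13.4-fold (fitted fold), from 697 ± 144 CPM (SD, n = 6) to 49.3 ± 21.7 (n = 8). Nfia fell 2.29-fold, from 214 ± 74.5 to 89.0 ± 30.7 CPM. The plot of the 4 genes by library shows these levels beside all other groups. The overexpressed gene itself, Gfi1, was at 225 ± 157 CPM in the Gfi1 OE libraries and 0.125 ± 0.0925 in controls, and Myc was at 521 ± 139 and 964 ± 409 CPM. Myc was thus called lower too (log2 change −0.73, SE 0.24, adjusted p 0.036, edgeR), and its part in the NFI changes was not tested.

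**Figure D1:**
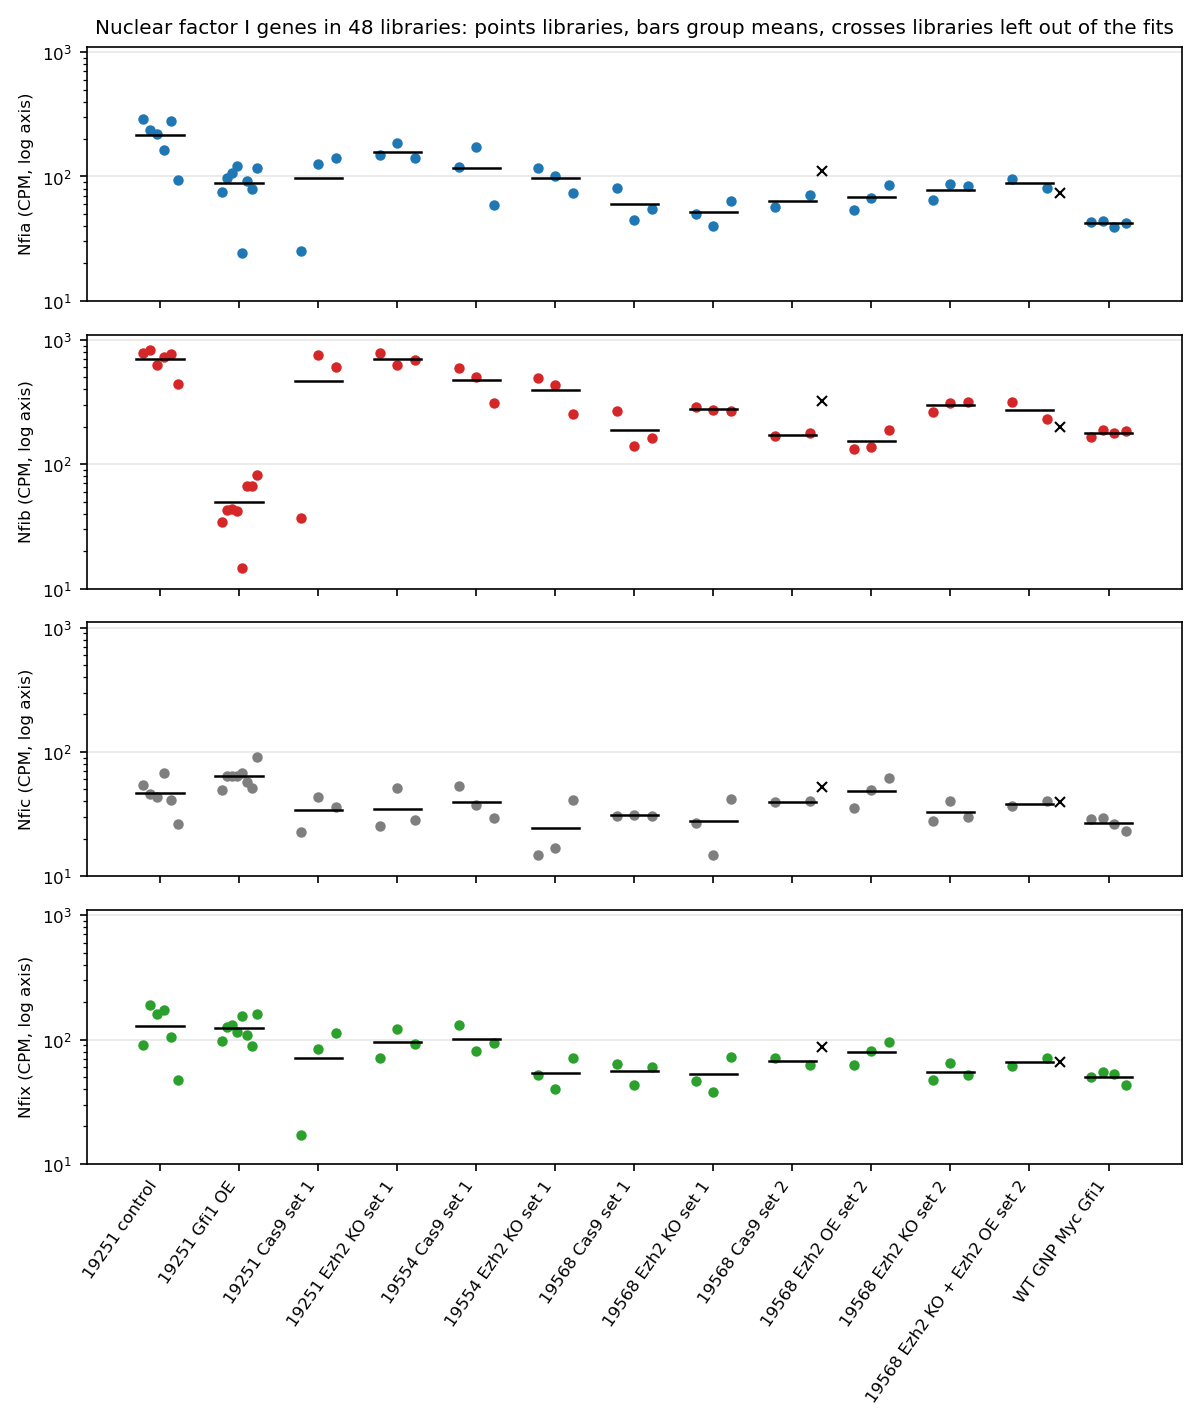
CPM (log axis) of Nfia, Nfib, Nfic and Nfix in every library of the 13 groups; points are libraries, bars are means over the libraries used in the fits, and crosses are 2 libraries left out of the fits. Nfib in the 8 Gfi1 OE libraries sits between 14.5 and 82.6, under every control library (441.9 to 830.8).

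Nfib was lowest at 441.9, with a median of 749.3 and a highest value of 830.8 CPM, in the 6 control libraries. In the 8 Gfi1 OE libraries the lowest value was 14.5, the median 43.4 and the highest 82.6 CPM. The groups did not overlap, and the highest Gfi1 OE library lay far under the lowest control. The log2 change was −3.74 (SE 0.29, adjusted p 1e-06, edgeR's quasi-likelihood test with Benjamini-Hochberg adjustment). By size of its fall, Nfib stood 82nd among the 17023 genes tested. The shallowest library, Gfi1 OE replicate 5, held the value 14.5 from 39 reads; without it the log2 change was −3.63.

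Nfia ran from 93.2 (control replicate 6) over a median of 228.4 to 289.1 CPM in controls. In Gfi1 OE libraries it ran from 24.2 over 94.7 to 120.6 CPM. The ranges overlapped through control replicate 6 alone, since the next control was at 164.4. The log2 change was −1.20 (SE 0.28, adjusted p 0.00669, edgeR's quasi-likelihood test with Benjamini-Hochberg adjustment), −1.07 without Gfi1 OE replicate 5 and −1.36 without control replicate 6.

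Nfic ran from 26.4 over 44.4 to 68.0 CPM in controls and from 49.0 over 63.6 to 91.1 CPM in Gfi1 OE libraries. The ranges overlapped, with the Gfi1 OE median above the control median. Its log2 change of 0.56 (SE 0.22) missed the threshold in edgeR's quasi-likelihood test (adjusted p 0.0781) and passed it with DESeq2 (0.59, adjusted p 0.0383) and without control replicate 4 (0.73, adjusted p 0.0238). Nfix ran from 47.4 over 133.3 to 190.8 CPM in controls and from 89.4 over 121.5 to 161.4 CPM in Gfi1 OE libraries. The Gfi1 OE values of Nfix lay inside the control range, and the log2 change was 0.07 (SE 0.29, adjusted p 0.884, edgeR). Thus 2 of the 4 genes were called lower and 0 higher, on a background in which 24.6% of all tested genes were called, 13.5% lower and 11.1% higher; the median log2 change of all tested genes was −0.03.

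The makeup of the family was therefore different between the arms, as the plot of shares within each library shows. Nfib made up 59.5% to 72.6% of the counts on the 4 genes in controls (median 64.3%) and 5.58% to 23.3% in Gfi1 OE libraries (median 13.2%). Nfix made up 7.42% to 15.5% in controls and 31.2% to 58.9% in Gfi1 OE libraries, and so had the highest median share there (36.8%), although its own CPM was not called as changed. Nfia made up 14.5% to 23.7% and 9.30% to 35.3%, and Nfic 3.43% to 6.02% and 17.5% to 26.2%. Without Gfi1 OE replicate 5, the shares in Gfi1 OE libraries were 25.85% to 35.28% for Nfia, above every control, and 31.15% to 38.38% for Nfix. They were then 12.23% to 23.3% for Nfib and 17.51% to 20.16% for Nfic. The summed CPM of the 4 genes was 1085 ± 249 in controls and 325 ± 62.4 in Gfi1 OE libraries, with no overlap between 609 and 451.8.

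**Figure D2:**
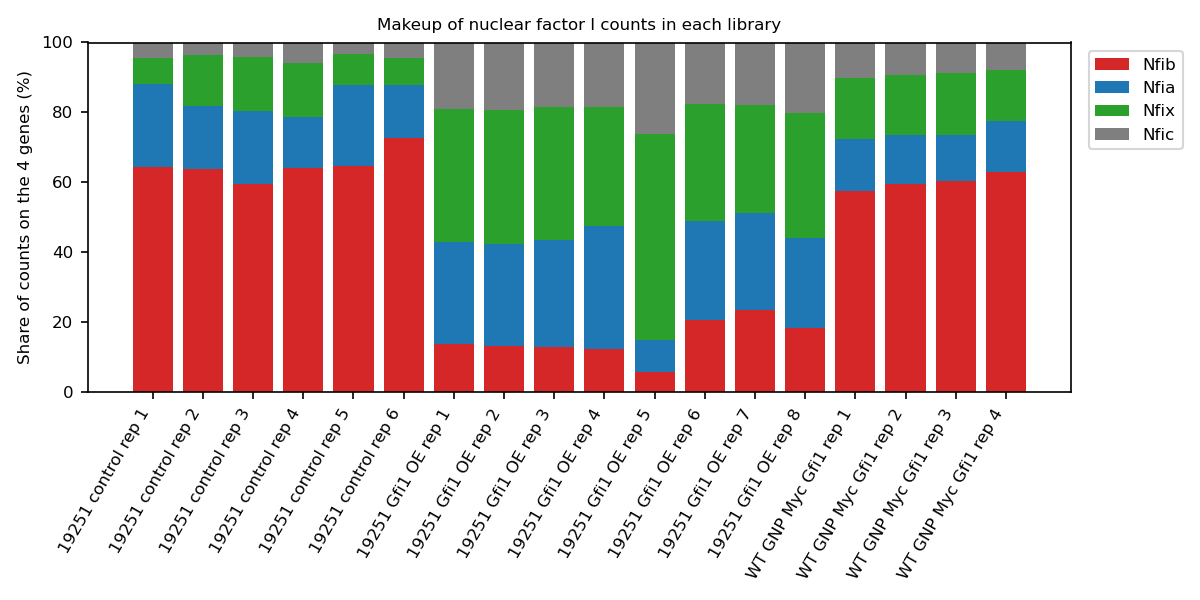
Share (%) of the counts on Nfia, Nfib, Nfic and Nfix taken by each gene, 1 bar per library, for 19251 control (n = 6), 19251 Gfi1 OE (n = 8) and WT GNP Myc Gfi1 (n = 4). Nfib takes at least 59.5% in every control and at most 23.3% in every Gfi1 OE library.

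Ratios between members of the family within a library do not depend on how libraries are scaled, and 6 of them were compared between the arms with two-sided exact permutation tests over the 14 libraries (3003 arrangements) and Benjamini-Hochberg adjustment over the 6. The ratio of Nfia to Nfib counts had a geometric mean of 0.294 in controls (0.211 to 0.368) and 1.84 in Gfi1 OE libraries (1.19 to 2.89), with exact p = 0.000666, the smallest this design allows, and adjusted p = 0.000999. Counts of Nfib therefore exceeded those of Nfia in every control, and counts of Nfia those of Nfib in every Gfi1 OE library. The ratio of Nfib to Nfix was 5.89 in controls and 0.366 in Gfi1 OE libraries, and that of Nfib to Nfic was 15.3 and 0.708, both with the same exact p. The ratio of Nfia to Nfic went from 4.49 to 1.31 with that p too, and Nfia to Nfix from 1.73 to 0.674 (exact p = 0.00133, adjusted p = 0.0016). For Nfic to Nfix, the ratio was 0.385 in controls and 0.517 in Gfi1 OE libraries, which missed the threshold (exact p = 0.0606) and passed it without Gfi1 OE replicate 5 (exact p = 0.0466). The 5 other ratios passed without that library as well.

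A gene on the opposite strand of Nfib and another opposite Nfia were lower in the same libraries. Gm11266, an antisense RNA gene inside the span of Nfib that shares no exon with it, was at 9.57 to 19.7 CPM in controls and at 0 to 0.606 in Gfi1 OE libraries. Its ranges did not overlap (log2 change −5.80, SE 0.51, adjusted p 2.77e-06, edgeR). E130114P18Rik, a protein-coding gene opposite Nfia whose exons overlap those of Nfia, was at 3.17 to 14.2 CPM in controls and 0.718 to 2.23 in Gfi1 OE libraries (log2 change −2.81, SE 0.36, adjusted p 7.70e-05, edgeR). The libraries were stranded per the labels, but the strand setting of the counting is not given in the sources used here. Reads of E130114P18Rik and Nfia may therefore not be fully separate. The same holds for Gm11266, since reads from introns of Nfib could be counted on it if strand was ignored. Gm16104 overlaps exons of Nfic in the same way, and Lyl1 and G430095P16Rik those of Nfix. Over both arms these 3 genes had means of at most 2.28 CPM, far under Nfic and Nfix, and Lyl1 was called higher (log2 change 1.58, adjusted p 0.0214, edgeR). Gm11267, within an intron of Nfib on the same strand, was not called (0.63, adjusted p 0.213, edgeR). These neighbouring genes were chosen by position.

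Among factors that act with NFI genes or regulate them, 5 of 8 were called lower with Gfi1 OE and 0 higher (13.5% of all genes were lower), with a median log2 change of −2.57 against −0.03 for all genes. The lists were chosen with earlier results of these data known, so their counts are a description. Sox2, a neural stem cell factor, was at 11.2 to 130.2 CPM in controls (median 48.2) and at 2.23 to 7.49 in Gfi1 OE libraries (median 3.73). The ranges did not overlap, and its log2 change was −3.75 (SE 0.49, adjusted p 8.85e-05, edgeR). Etv1, an ETS factor of maturing granule neurons, fell by 3.37 on the log2 scale, Olig2, a factor of oligodendrocyte precursors, by 3.27, and Pou3f2, a neural POU factor, by 2.89. Olig2 ran from 0.139 to 87.1 CPM in controls (median 4.34). Its Gfi1 OE values, 1.28 to 4.36 CPM (median 1.54), lay inside that range. Zbtb20, a zinc finger factor of astrocyte development, fell by 2.26. Sox9, which induces Nfia in the spinal cord, had a log2 change of −1.23 (adjusted p 0.0907, edgeR) and was not called.

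Of 8 glial genes known to be activated by NFI proteins, 3 were called lower and 0 higher, and the median log2 change was 0.05. The counts of called genes in this list and the next 2 stand beside 13.5% lower and 11.1% higher among all tested genes. Slc1a3, the glial glutamate transporter GLAST, was at 122 to 340.5 CPM in controls (median 166.7) and at 38.3 to 65.0 in Gfi1 OE libraries (median 57.5), with no overlap. The log2 change was −1.71 (SE 0.21) with an adjusted p of 4.96e-05 (edgeR). Apcdd1, a Wnt inhibitor and target of Nfia in glial precursors, fell by 1.82, and Gfap, the intermediate filament of astrocytes, by 1.09. Of the 7 granule neuron genes on the list, 6 were tested. Grin2c, an NMDA receptor subunit of mature granule neurons, rose by 1.52, and Cdh2, N-cadherin, fell (159.6 to 45.9 CPM, means), while 4 were not called (median −0.27). Of 5 genes known to be repressed by NFI proteins in neural progenitors, 0 were called higher. Hes1, a Notch effector, fell 2.84-fold, and Ezh2, which is repressed by Nfib in the mouse forebrain, had a log2 change of −0.53 (adjusted p 0.0710, edgeR) and was not called (list median −0.61).

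Some markers of other cell types were called too, beside 13.5% lower and 11.1% higher among all tested genes. In bulk samples, fewer cells of a type and less RNA per cell cannot be told apart. The summed CPM of 8 astrocyte markers was 454 to 1257 in controls and 115 to 595 in Gfi1 OE libraries, with 2 called lower (Gfap and Aldoc) and 1 higher (S100b). Of 8 granule neuron progenitor markers, 4 were lower (Barhl1, Zic1, Pax6 and Lhx9) and 1 higher (Zic2), with sums of 235 to 391.5 and 86.3 to 439. The defining markers are uneven, since Atoh1 of granule neuron progenitors ran from 0.479 to 32.5 CPM in controls and Gabra6 of mature granule neurons was listed at 0 in 6 of 6 controls. Of 5 oligodendrocyte precursor markers, 2 were lower (Pdgfra and Olig2), with sums of 24.9 to 278.4 and 21.1 to 56.5. None of 7 oligodendrocyte markers was called (sums of 21.6 to 1005 and 212 to 502), and none of 7 microglia or 6 endothelium markers. Cortical neuron markers summed to 16.4 to 313 and 11.5 to 147 CPM. Cd79a, a B cell receptor component and the only one of 6 lymphocyte markers tested, rose by 6.90. Of 7 pericyte and fibroblast markers, Col1a1 was higher and Acta2 lower. Proliferation markers summed to 2101 to 3111 and 946 to 2720 CPM, lowest in Gfi1 OE replicate 5, with 1 of 6 higher (Mcm2). Control replicate 6, the lowest control for all 4 NFI genes, had the highest astrocyte and cortical neuron sums of the controls (1257 and 313). The part of these cells in the NFI changes was not tested.

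The libraries labelled WT GNP Myc Gfi1, from granule precursors that kept p53 and p18, had a different set of NFI levels from the Gfi1 OE libraries of line 19251. Nfib was higher in them, at 164.5, 188.0, 179.1 and 184.5 CPM, than in any Gfi1 OE library, where the highest was 82.6. Nfic was at 22.9 to 29.2 CPM and Nfix at 43.4 to 54.8, both under every Gfi1 OE library, and Nfia was at 39.0 to 44.0. The Nfia values overlapped those of Gfi1 OE through replicate 5 alone (24.2). The log2 changes against Gfi1 OE were 1.82 for Nfib (SE 0.28, adjusted p 0.000174), −1.11 for Nfia (SE 0.26, adjusted p 0.00382), −1.31 for Nfic (SE 0.19, adjusted p 8.90e-05) and −1.37 for Nfix (SE 0.21, adjusted p 0.000174), by edgeR's quasi-likelihood test with Benjamini-Hochberg adjustment. All 4 genes were called, against 48.7% of all tested genes, 21.9% higher and 26.8% lower. Genotype, cell of origin, the number series in the titles and the level of Gfi1 itself (log2 change −9.06) cannot be told apart here.

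Within WT GNP Myc Gfi1 libraries the family makeup was close in all 4 replicates, with Nfib at 57.4% to 63.0% of the family's counts and Nfix at 14.8% to 17.7%. This makeup was not particular to them, since Nfib took 52.8% to 60.3% and Nfix 14.5% to 19.4% in Cas9 of 19568 in set 1. The ratio of Nfia to Nfib was 0.235 (0.218 to 0.260) against 1.84 in Gfi1 OE (exact permutation, two-sided p = 0.00404, the smallest this design allows, adjusted p = 0.00808 over 6 ratios). The ratios of Nfib to Nfic and of Nfib to Nfix differed with the same exact p. The 3 ratios without Nfib did not pass (exact p from 0.529 to 0.650). The counts of the lists that follow stand beside 21.9% of all tested genes higher and 26.8% lower. Of the 8 partner genes, 5 were higher and 0 lower (Sox9, Nfatc4, Sox2 and Olig2 by 3.90, 4.37, 2.25 and 2.22 on the log2 scale, and Sox10). Of the 8 glial genes, 1 was higher (Slc1a3, 0.80) and 5 were lower, among them Mmd2, a target of Nfia and Sox9 in glial precursors of the spinal cord, by 2.26, and Fabp7, a radial glia lipid-binding protein, by 1.92. Aldh1l1, an astrocyte folate enzyme, fell by 1.68 and Gfap by 1.67. Of 6 granule neuron genes tested, 2 were higher (Efnb1 3.38 and Tiam1 0.54) and 3 lower (Cntn2 −4.61, Grin2c −4.45 and Cdh2 −2.71), and of 5 repressed genes Hes1 (2.66) and Sox9 were higher and Hes5 (−5.24) lower. Cell type markers differed too. All 5 oligodendrocyte precursor markers were higher (sums of 278 to 337 CPM against 21.1 to 56.5), and 5 of 8 astrocyte markers were lower and 1 higher (sums of 316 to 413 against 115 to 595). Pericyte and fibroblast markers summed to 1036 to 1509 CPM against 193 to 649, with 2 of 7 higher and 1 lower. Granule neuron progenitor markers summed to 473 to 536 CPM against 86.3 to 439, with 2 of 8 higher and 4 lower and a median log2 change of −1.41. Gli1, a Hedgehog effector, made up most of that sum (434.7 to 498.1 CPM), whereas Atoh1 was listed at 0 in 4 of 4 libraries labelled WT GNP Myc Gfi1. In Cas9 of 19568 in set 1, oligodendrocyte precursor markers summed to 337.3 to 393 CPM and pericyte and fibroblast markers to 1109 to 1751. High sums of these 2 lists were therefore not particular to WT GNP Myc Gfi1. Granule neuron progenitor markers summed there to 343 to 400.7 CPM and astrocyte markers to 648.1 to 1059. The part of the marked cell types in the NFI differences was not tested.

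Across the 3 lines of set 1, none of the 4 genes was called between the libraries labelled Ezh2 KO and Cas9. The log2 changes were 0.28 for Nfib (SE 0.35), 0.05 for Nfia (SE 0.27), −0.30 for Nfic (SE 0.25) and −0.21 for Nfix (SE 0.28), with adjusted p from 0.815 to 0.988 (edgeR). Without Cas9 replicate 1 of 19251 the Nfib change was 0.11, and over all libraries left out in turn it ran from 0.11 to 0.39. Nfib was at 36.6 to 749.0 CPM in the 9 Cas9 libraries and at 253.1 to 785.4 in the 9 labelled Ezh2 KO, and the ranges of all 4 genes overlapped. Of all tested genes, 0.561% were called (99 genes). Ezh2, the targeted gene, was at 62.0 ± 19.3 CPM against 64.5 ± 28.6 in 19251 and at 74.1 ± 7.65 against 75.2 ± 9.81 in 19554, so its counts do not show the knockout in these lines. Without Cas9 replicate 1 of 19251 (32.8 CPM of Ezh2), the Cas9 values there were 88.2 and 72.6 CPM against 71.4, 74.7 and 39.8, which still overlapped. In 19568 it was at 43.7 ± 5.40 against 74.5 ± 7.98 CPM without overlap, though it was not called there either (log2 change −0.77, SE 0.29, edgeR). Counts over a whole gene cannot check a small edit, so the other 2 lines are named by their labels.

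Within single lines, 0 of the 4 genes was called in 19251 (0.259% of all tested genes called), 19554 (0.481%) or 19568 (0.027%). On simulated data, the test in 19251 called 3% of genes changed by 1 on the log2 scale, so changes of that size would mostly be missed. In 19251, Nfib was at 36.6, 749.0 and 605.0 CPM with Cas9 and at 785.4, 624.0 and 686.8 in the libraries labelled Ezh2 KO. The value 36.6 belongs to Cas9 replicate 1, the library with high host brain markers and little Myc. Without it, the log2 change of Nfib in 19251 went from 0.52 to −0.02 and that of Nfia from 0.60 to 0.17. In 19554, Nfib was at 598.0, 505.3 and 310.2 CPM with Cas9 and at 489.7, 435.2 and 253.1 in the libraries labelled Ezh2 KO, so the ranges overlapped. Nfix there was at 80.7 to 130.8 and 40.1 to 70.9 CPM without overlap (log2 change −0.89, SE 0.47, adjusted p 0.624, edgeR). A test of whether the effect differs between the lines called 0 of the 4 genes (adjusted p from 0.695 to 0.914, edgeR), against 0.0162% of all genes.

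**Figure D3:**
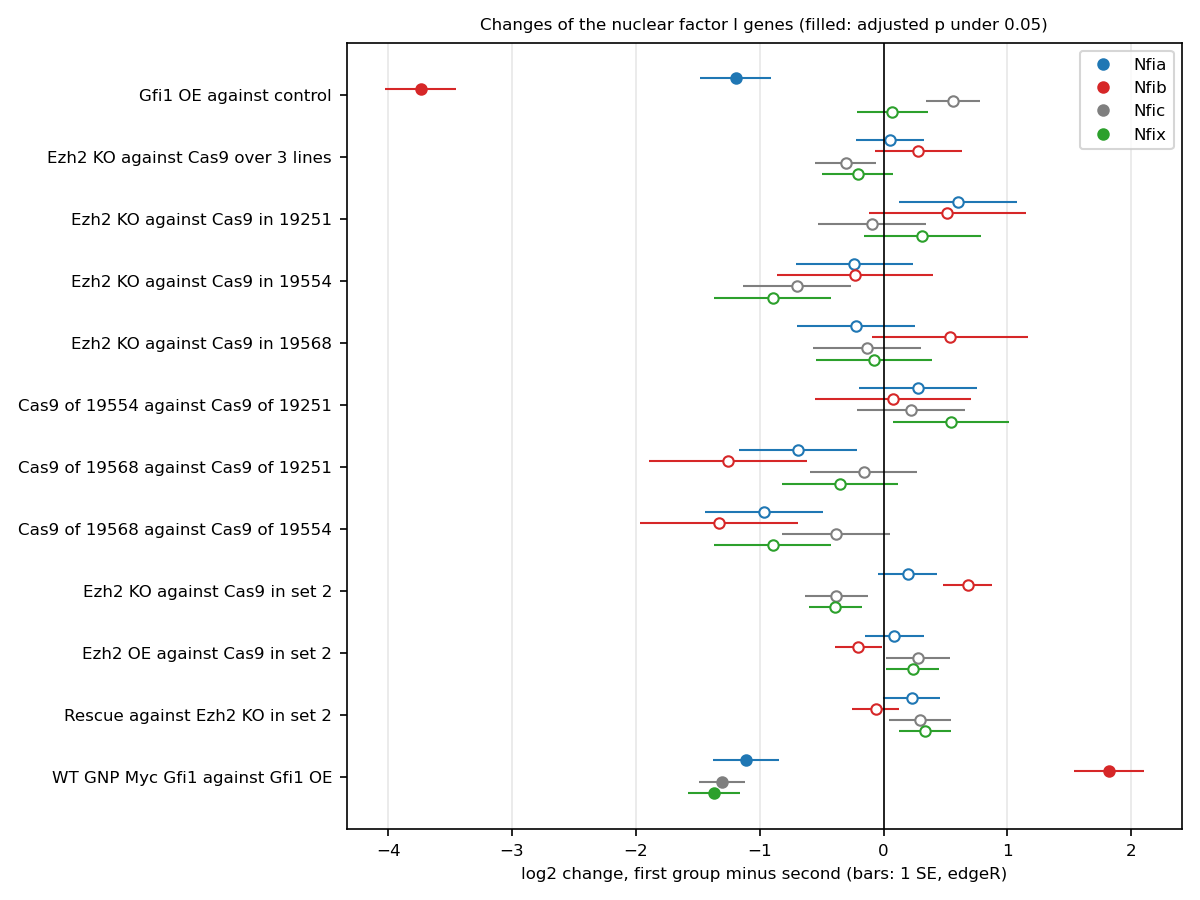
Log2 change of each gene, first group minus second, in the 12 comparisons between groups; bars are 1 SE from edgeR, and filled points have an adjusted p under 0.05. Filled points occur for Nfia and Nfib in Gfi1 OE against control (−1.20 and −3.74) and for all 4 genes in WT GNP Myc Gfi1 against Gfi1 OE.

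In both sets of line 19568, Nfib values with Ezh2 KO lay above those with Cas9, short of the threshold in each set alone. In set 1, Nfib was at 265.4, 139.6 and 163.0 CPM with Cas9 and at 287.1, 273.5 and 265.9 with Ezh2 KO. Every Ezh2 KO library lay above every Cas9 library, by a narrow margin over Cas9 replicate 1. The log2 change of 0.54 (SE 0.63) was not called (adjusted p 1, edgeR), and with the replicate number as a block it was 0.60, with 0 genes called overall against 5 without.

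In set 2 of the same line, Nfib was at 169.0 and 176.5 CPM with Cas9 and at 262.2, 313.2 and 314.7 with Ezh2 KO. These groups did not overlap either. With so few libraries this can be common, and the share of all genes without overlap was not counted in either set. The log2 change was 0.68 (SE 0.20, adjusted p 0.0652, edgeR), which just missed the threshold. It passed with DESeq2 (0.67, adjusted p 0.0103), with no filter on low counts (0.69, adjusted p 2.36e-05) and without Ezh2 OE replicate 1 or 3 (adjusted p 0.0222 and 0.0297). The number of all genes called moved as well, from 238 to 2347 over the libraries left out in turn, against 1608 in the main fit. Nfia (0.19), Nfic (−0.38) and Nfix (−0.39) were not called, so 0 of 4 were called against 9.1% of all genes. Ezh2 fell from 92.7 ± 1.10 to 51.3 ± 4.43 CPM (log2 change −0.95, adjusted p 0.00416, edgeR). With no filter Nfix was called lower too (−0.38, adjusted p 0.0360).

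A fit of both sets of line 19568 together, with a term for the set, was added after these values were seen. Over 11 libraries it gave Nfib a log2 change of 0.58 (SE 0.15, adjusted p 0.0219, edgeR), against 8.43% of 17167 genes called higher. With the replicate number as a block in set 1, the log2 change of Nfib was 0.62 (SE 0.11, adjusted p 0.00461, edgeR), though whether those numbers pair libraries was not settled. The other 3 genes were not called in it. Leaving out each library in turn gave an adjusted p for Nfib between 0.000175 and 0.0730, over the threshold only without Cas9 replicate 2 of set 2.

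**Figure D4:**
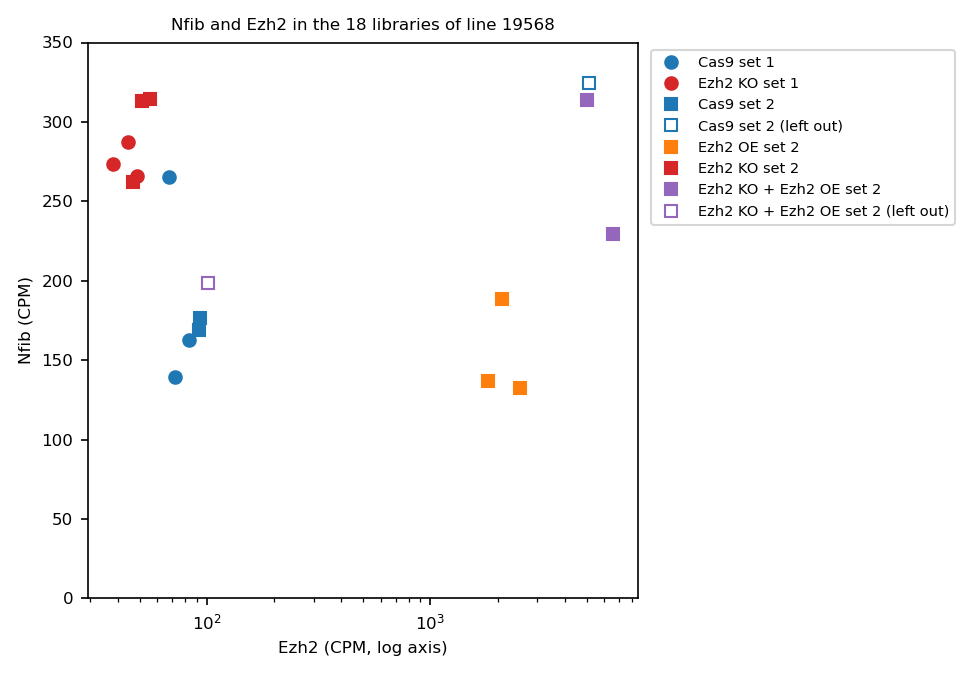
Nfib (CPM) against Ezh2 (CPM, log axis) in the 18 libraries of line 19568; circles are set 1, squares set 2, colours the arms, and open squares the 2 libraries left out of the fits. The 6 Ezh2 KO libraries lie between 262.2 and 314.7 CPM of Nfib, and the Ezh2 OE libraries, with at least 1804 CPM of Ezh2, between 132.3 and 188.4.

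Overexpression of Ezh2 in cells that kept their own Ezh2 left Nfib at 132.3, 137.1 and 188.4 CPM, overlapping Cas9 (log2 change −0.20, SE 0.19). Ezh2 itself was at 2143 ± 363 CPM in those libraries. None of the 4 genes was called, against 0.00566% of all genes, which is Ezh2 alone. In the rescue libraries, with Ezh2 at 5807 ± 1088 CPM, Nfib was at 314.0 and 229.3 CPM and overlapped Ezh2 KO (log2 change −0.06, SE 0.19, adjusted p 0.900, edgeR). None of the 4 was called, against 1.21% of all genes. The rescue mean of Nfib, 271.7 ± 59.9 CPM, lay above the mean with Cas9 (172.7 ± 5.32), and that difference was not tested. The left-out library labelled Cas9 had 324.3 CPM of Nfib and 5128 CPM of Ezh2. The left-out library labelled rescue had 198.6 CPM of Nfib and 101 CPM of Ezh2. The Ezh2 counts of both go against their labels, and whether the labels are exchanged was not tested. With both taken as labelled, the Nfib change of Ezh2 KO against Cas9 in set 2 was 0.34 (adjusted p 0.589, edgeR). In Ezh2 KO of set 2, the summed markers of pericytes and fibroblasts were 2436 to 2670 CPM against 1044 to 1078 with Cas9, while the median log2 change of the 7 markers was −0.52 and 0 were called, so the sum and most markers had opposite signs. They were 2590 to 3378 CPM in the rescue, 536 to 1349 with Ezh2 OE, 3167 in the left-out library labelled Cas9 and 1350 in that labelled rescue. In set 1 of 19568 they were 1942 to 2810 CPM with Ezh2 KO and 1109 to 1751 with Cas9, and there too the median log2 change of the markers (−0.32) had the other sign, with 0 of 7 called. Granule neuron progenitor markers of set 2 summed to 590 to 628 CPM with Ezh2 KO and 450.3 to 465.9 with Cas9. Against 9.1% of all tested genes called, 3 of the 6 of these markers that were tested were higher (Pax6, Mfap4 and Lhx9). The part of these cells in the Nfib values was not tested. Among the listed genes, Efnb1, an ephrin of granule neurons, rose by 0.80 and Bbx, repressed by Nfi factors in neural progenitors, fell by 0.45 in that comparison, and over the 3 lines of set 1 Zbtb20 fell by 0.91.

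Between the Cas9 libraries of the lines, Nfib was at 139.6 to 265.4 CPM in 19568, 310.2 to 598.0 in 19554 and 36.6 to 749.0 in 19251, and 19568 did not overlap 19554. With all libraries the log2 change of 19568 was −1.25 against 19251 (adjusted p 0.262) and −1.33 against 19554 (adjusted p 0.287), and neither was called by edgeR, with 0 of 4 genes called against 3.01% and 3.46% of all genes. Without Cas9 replicate 1 of 19251 the changes were −1.79 (adjusted p 0.00527) and −1.32 (adjusted p 0.0123, both edgeR), and Nfib was called in both. The shares above are those of the fits with all libraries and do not apply to these calls. Over the libraries left out in turn, 177 to 1619 genes were called against 19251 (557 with all libraries). Against 19554 there were 273 to 2322 (641 with all libraries). The 18 libraries of 19568 ran from 132.3 to 324.3 CPM of Nfib. None of the 4 genes was called between 19554 and 19251 (0.292% of all genes). Line cannot be told apart from a number in the titles that differs by line.

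Over all 48 libraries, Nfib had the widest span, from 14.5 to 830.8 CPM (57.3-fold). Nfia ran from 24.2 to 289.1 CPM, Nfix spanned 11.1-fold (17.2 to 190.8) and Nfic 6.18-fold (14.7 to 91.1). Per length of annotated exon, Nfib had the highest median over libraries at 17.6 CPM per kb, followed by Nfix (9.84), Nfia (7.80) and Nfic (5.99). In order of its group median, Nfib ran from Gfi1 OE (43.4 CPM) through Ezh2 OE (137.1), Cas9 of 19568 (163.0 and 172.7), WT GNP Myc Gfi1 (181.8), rescue (271.7), Ezh2 KO of 19568 (273.5 and 313.2), 19554 (435.2 and 505.3) and 19251 in set 1 (605.0 and 686.8) to 19251 control (749.3). Neighbours in that order overlapped, except Gfi1 OE below Ezh2 OE and WT GNP Myc Gfi1 below rescue. For Nfia the order ran from WT GNP Myc Gfi1 (42.5 CPM) to 19251 control (228.4), and its only neighbours that did not overlap were Cas9 and labelled Ezh2 KO of 19251 (highest 140.9 and lowest 141.0). Nfic medians ran from 16.9 CPM in labelled Ezh2 KO of 19554 to 63.6 in Gfi1 OE, and Nfix medians from 46.7 in Ezh2 KO of 19568 in set 1 to 133.3 in 19251 control, with all neighbours overlapping.

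The genes whose group means followed each NFI gene most closely were found over 13 groups and 15248 genes, by the root mean square difference of centred log2(CPM + 1). Nearest to Nfib were Msi1, a neural RNA-binding protein (0.34), Meis1, a homeobox factor (0.38), and Basp1, a membrane protein of growing axons (0.40). Meis1 was at 40.2 to 150.5 CPM in controls and 0.953 to 11.4 in Gfi1 OE libraries, and Msi1 at 12.9 to 36.4 and 0.739 to 8.93 CPM, without overlap. Nearest to Nfia were Slc26a7 (0.27), 1190002N15Rik (0.27) and BC052040 (0.30), nearest to Nfic were AW146154 (0.14), Adck4 (0.19) and Sirt2 (0.19), and nearest to Nfix were Rilpl2 (0.20), Agxt2l2 (0.21) and Ech1 (0.22). Within the family, Nfic and Nfix were nearest to each other (0.26), where Nfic was the 35th gene closest to Nfix and Nfix the 104th closest to Nfic. Nfia and Nfib differed by 0.78, and Nfib and Nfic by 1.21. The groups share lines, and library composition and depth enter this measure, so likeness is a description.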

How the data were processed

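RNA was sequenced as stranded paired-end libraries, per the labels. The authors deposited whole read counts per gene symbol for 48 libraries; per the submitters' processing notes the build was mm9 and the tools named were the aligners STAR and BWA, the counter HTSeq, CASAVA 1.7, R 3.2.3 and limma; the annotation and strand setting are not given in the sources used here. Lines that name no gene were left out of library sizes (no-feature reads were 19.6% to 42.6%). Of 1128 library pairs 0 were identical (lowest chi-square per degree of freedom 7.91).

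Counts were tested with edgeR 4.0.16 in R 4.3.3 (TMM, filterByExpr, quasi-likelihood F-test, Benjamini-Hochberg over all tested genes, called at an adjusted p under 0.05). Residual degrees of freedom were 12 for Gfi1 OE, 14 and 12 for set 1 (with line as a term, and as 6 group means), 6 for set 2 and 10 for WT GNP Myc Gfi1. In set 2, 2 libraries were left out because title and file numbers contradict each other. Numbers 1 to 8 of Gfi1 OE follow accession order, since all titles carry the number 8. Named genes are the 4 NFI genes, up to 4 called genes of each list by size of change, and the 3 genes of closest pattern to each. The NFI genes and lists were chosen with earlier results of these data known. Overlap of CPM ranges is a description, since the share of all genes without overlap was not counted in any comparison. On simulated data with 100 genes changed by 3 on the log2 scale, 85% were called in Gfi1 OE against control, and 27% of those changed by 1. For Ezh2 KO against Cas9 the rates were 87% and 27% over 3 lines, 56% and 3% in 19251, and 77% and 40% in set 2. For WT GNP Myc Gfi1 against Gfi1 OE they were 93% and 38%. The changed genes were drawn from all genes that passed the filter, whatever their level.

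Deviations from group means were correlated between libraries of the same replicate number. The r was 0.19, 0.50 and 0.24 in 19568 of set 1. It was −0.19 to 0.31 in the other lines and −0.68 to 0.53 in set 2, where not every pair passed 0.1. Libraries of different numbers were not correlated, so these values do not settle whether the numbers pair libraries. The fit of both sets of 19568 had the block in set 1 only, where every r passed 0.1. Alternatives were RLE scaling, no filter, DESeq2 1.42.0, each library left out, the replicate block, each line alone and all 12 libraries of set 2. Calls of single cortical neuron markers are not reported here.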

Additional observations from a re-analysis of the deposited data

Results flagged for a closer look

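Among 12 sets of values tested, 2 held a library far from the others of its group, where chance gives about 1 in 20. Nfia in Gfi1 OE replicate 5 was at 24.2 CPM, under the other 7 libraries of that group (75.2 to 120.6). Nfic in Gfi1 OE replicate 8 was at 91.1 CPM, above the other 7 (49.0 to 68.1).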

How the results depend on the processing

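Nfib and Nfia were called lower with Gfi1 OE in all 17 alternatives, with log2 changes from −3.90 to −3.63 and from −1.36 to −1.07, and all 4 NFI genes stayed called in the 15 alternatives of WT GNP Myc Gfi1 against Gfi1 OE. Among the 4 genes, the number called in Ezh2 KO against Cas9 in set 2 went from 0 to 2 with no filter and to 1 with DESeq2, and from 0 to 1 over the libraries left out in turn. It went from 0 to 1 in both comparisons of Cas9 of 19568 without Cas9 replicate 1 of 19251, and to 1 in 19568 with both sets fitted together, without and with a replicate block in set 1, both added after seeing the data. With Cas9 of set 2 in 19568 scaled by TMM over all 48 libraries, Nfib was at 178.8 CPM and Nfic at 41.1. 

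Signs of uncalled changes turned in some settings, and the cause was not tested. With all 12 libraries of set 2, Nfia was at −0.088 in Ezh2 KO against Cas9 and −0.18 in Ezh2 OE against Cas9, and with the replicate block Nfib in the rescue was at 0.024. The block changed no other call of an NFI gene. Over the libraries left out in turn, log2 changes ran for Nfix in Gfi1 OE from −0.11 to 0.22, and for Nfia over 3 lines from −0.11 to 0.17. In 19251 with Ezh2 KO they ran from −0.024 to 0.98 (Nfib), −0.13 to 0.82 (Nfix) and −0.47 to 0.085 (Nfic). In 19554 they ran from −0.56 to 0.11 (Nfia) and −0.47 to 0.014 (Nfib), and in 19568 from −0.40 to 0.081 (Nfia), −0.38 to 0.15 (Nfix) and −0.54 to 0.20 (Nfic). For Cas9 of 19554 against 19251 they ran from −0.16 to 0.64 (Nfia), −0.47 to 0.53 (Nfib) and −0.063 to 0.39 (Nfic), and for 19568 against 19251 from −0.79 to 0.14 (Nfix). In set 2 they ran from −0.30 to 0.14 (rescue, Nfib), −0.0016 to 0.45 (Ezh2 KO, Nfia) and −0.11 to 0.36 (Ezh2 OE, Nfia).

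Counts over all genes moved more. DESeq2 called 409 genes over 3 lines against 99, and 842, 556 and 76 within lines against 48, 89 and 5. It called 2766, 2303 and 1863 between Cas9 of the lines against 54, 557 and 641, 268 for the difference between lines against 3, and 1058 in the rescue against 213. With no filter, 2984 genes were called in Ezh2 KO of set 2 against 1608. With the block, 57 were called over 3 lines, 3 in 19251, 17 in 19554, 889 in set 2 and 79 in the rescue. Gfi1 OE against control ran from 3461 to 5737 genes over the libraries left out, against 4186.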
